A study of Mus musculus with 20 samples.

Results

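The genes described here encode 35 nuclear subunits of respiratory complexes II to V, together with the electron carrier cytochrome c, measured by RNA sequencing in mouse hearts. They were taken by symbol from the 25851 genes of the expression table, with the ATP synthase genes under their older names. Complex II contributed 4 genes, complex III 9, cytochrome c 1, complex IV 6 and complex V 15. All 35 were found and all 35 passed the filter on low values, at 1475 to 135695 recovered reads per gene and library.

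Hearts came from 20 male mice aged 14 to 16 weeks, in 4 groups of 5. Wild-type mice stayed sedentary or had a running wheel for 6 weeks, and mice labelled as lacking PGC-1α in cardiomyocytes were treated in the same 2 ways. PGC-1α, encoded by Ppargc1a, is a transcriptional coactivator that raises expression of mitochondrial genes. The driver of the deletion, the deleted exons and any allele shared with the controls are not given in the sources used here. The labelled knockout groups address whether cardiac PGC-1α is needed for the response of the heart to endurance training.

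Complex II (succinate dehydrogenase) passes electrons from succinate to ubiquinone, complex III (cytochrome bc1) passes them to cytochrome c, and complex IV (cytochrome c oxidase) hands them to oxygen. Complexes III and IV pump protons across the inner mitochondrial membrane, and complex V (ATP synthase) uses the returning protons to make ATP, on which the beating heart depends almost wholly. Complex II is encoded in the nucleus alone, whereas complexes III, IV and V combine nuclear subunits with a few made from the mitochondrial genome. PGC-1α has no DNA-binding domain of its own and acts through partners such as the estrogen-related receptors, the nuclear respiratory factor NRF1 and the ETS factor GABP.

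Sequences before the start sites of the members are shown because those partners bind DNA there. A promoter of 300 bases (250 before to 50 after the RefSeq start, build GRCm38.p6) was matched by symbol for 27 of the 35 members, as 30 promoters. The promoters were searched on both strands for AAGGTCA (the core sequence bound by estrogen-related receptors), CCGGAAG (ETS factors) and GCGCATGC (the core of the NRF1 motif). AAGGTCA was in 5 of the 30 promoters (16.7%, against 4.72% of all 32851 promoters), CCGGAAG in 10 (33.3% against 8.86%) and GCGCATGC in 7 (23.3% against 2.71%). NRF1 matches on the 2 strands overlap where the motif is palindromic, as in Atp5g2 and Uqcrc1, and no other overlap lies in the windows shown. Each window is 30 bases on the gene's strand, 5′ to 3′, with the match in capitals, and a match is a string of letters and not a measured binding site. The Sdhb window is at chr4:140961206-140961235 (plus strand), its match starting 54 bases before the start. The Uqcrc1 window is at chr9:108936668-108936697 (plus strand), 31 bases into the transcript, and the Uqcr11 window at chr10:80406869-80406898 (minus strand), 66 bases before. The Cycs window is at chr6:50566611-50566640 (minus strand), 60 bases before, and the Cox6b1 window at chr7:30626124-30626153 (minus strand), 28 bases before. The Atp5g2 window is at chr15:102671070-102671099 (minus strand), 42 bases before, and the Atp5l window at chr9:44920737-44920766 (minus strand), 13 bases before.
Sdhb NRF1: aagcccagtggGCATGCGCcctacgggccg
Uqcrc1 NRF1: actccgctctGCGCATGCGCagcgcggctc
Uqcr11 ETS: ttctctcctccCCGGAAGtagatgtcaatg
Cycs NRF1: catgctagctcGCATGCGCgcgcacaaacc
Cox6b1 ETS: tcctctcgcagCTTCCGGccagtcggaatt
Atp5g2 NRF1: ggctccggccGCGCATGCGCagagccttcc
Atp5l ERR: gaggggcagccTGACCTTggaaatggggaa
Atp5g3 is shown in full because it carried most of the c-ring transcript level and holds an estrogen-related receptor string 52 bases before its start. The 250 bases before that start lie at chr2:73911327-73911576 on the minus strand and overlap no exon annotated by GENCODE. The promoter of Atp5g1, another c-ring gene (chr11:96075582-96075881, minus strand), held none of the 3 letter strings.
Atp5g3: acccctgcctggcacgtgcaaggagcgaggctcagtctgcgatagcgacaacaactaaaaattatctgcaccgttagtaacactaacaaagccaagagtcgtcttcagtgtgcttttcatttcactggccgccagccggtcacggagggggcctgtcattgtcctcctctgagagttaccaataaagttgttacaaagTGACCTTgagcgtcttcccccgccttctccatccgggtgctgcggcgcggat

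Levels are FPKM as deposited, reads scaled to exon length and an effective library size, and group values are means ± SD with n = 5 mice. That size was below the recovered reads in every sedentary library (17.1 against 19.9 M in wild-type replicate 3). It was above them in every trained labelled knockout library (24.5 against 22.3 M in replicate 4), and trained wild-type libraries went both ways. The deposited values were therefore not scaled by read totals alone. Differences are log2 fold changes on the log2(FPKM + 0.5) scale with their standard error, and adjusted p comes from limma with Benjamini-Hochberg adjustment over 13723 genes. A gene fell or rose where that p was below 0.05. Depth was 14.2 to 30.4 M recovered reads per library. Ppargc1a itself was at 12.3 ± 2.85 FPKM in sedentary wild-type and 22.9 ± 4.41 FPKM in sedentary labelled knockout hearts, so the value over all exons went against the label and the groups are called labelled knockout throughout. The atrial gene Myl7 was above 1000 FPKM in 4 trained libraries (wild-type replicates 4 and 5, labelled knockout replicates 2 and 5) and the clock gene Arntl above 2 FPKM in 5 sedentary libraries (wild-type replicates 1 to 4, labelled knockout replicate 1). Rescaling every library to a common sum (TPM) moved the median of all genes to 0.24 in the trained genotype comparison, 0.21 for training in labelled knockout hearts and 0.15 for the difference of the training changes. The members' own median on the TPM scale was -0.50, -0.38 and -0.37 in these comparisons. Measured from the medians of all genes it was -0.74, -0.58 and -0.52, against -0.79, -0.62 and -0.55 on the deposited scale.

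The subunit transcripts were lowest in trained labelled knockout hearts, in every complex and by a similar proportion. The 35 genes summed to 14081 ± 1035 FPKM in sedentary wild-type, 11913 ± 575 FPKM in sedentary labelled knockout, 13362 ± 1279 FPKM in trained wild-type and 7694 ± 476 FPKM in trained labelled knockout hearts. The highest trained labelled knockout library (8248 FPKM) was below the lowest library of any other group (11427 FPKM). As a percentage of the sedentary wild-type mean, the sum was 84.6% ± 4.09 in sedentary labelled knockout, 94.9% ± 9.08 in trained wild-type and 54.6% ± 3.38 in trained labelled knockout hearts. Complex by complex, trained labelled knockout hearts stood at 53.7% ± 2.83 for complex II, 54.4% ± 2.97 for III, 55.8% ± 3.72 for cytochrome c, 56.5% ± 5.29 for IV and 54.3% ± 3.23 for V. The members made up 2.90% ± 0.207 of all FPKM in sedentary wild-type and 2.05% ± 0.0945 in trained labelled knockout hearts. In whole heart tissue, fewer cardiomyocytes and less RNA per cardiomyocyte cannot be told apart.

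**Figure D1:**
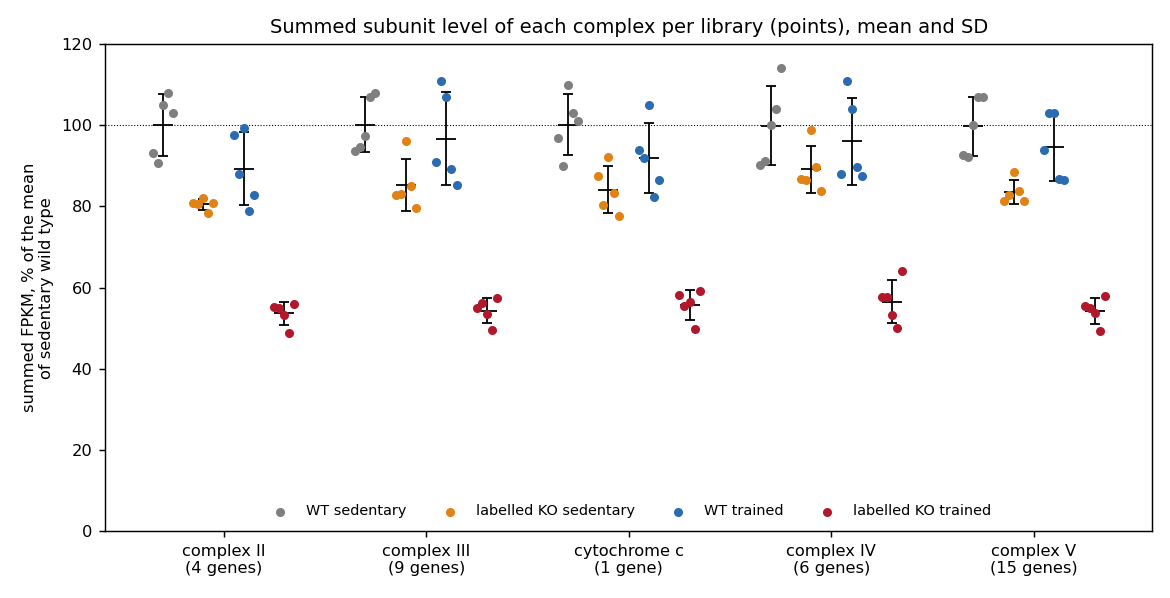
Summed FPKM of the members of each complex in each of the 20 libraries, as a percentage of the sedentary wild-type mean of that complex. Points are libraries coloured by group and bars are mean and SD; trained labelled knockout libraries lie between 48.9 and 64.0% over the 5 sets of genes, below all other libraries.

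In sedentary mice, 16 of the 35 genes fell in labelled knockout hearts, where 6.32% of all genes tested fell. None of the 35 rose, none was higher at an unadjusted p below 0.05, and voom on recovered reads called 0 higher as well. The median of the 35 was -0.25 against -0.01 for all genes, and the groups did not overlap in 16 members, against 5.29% of all genes with labelled knockout lower without overlap. In trained mice all 35 fell, where 15.4% of all genes fell, with a median of -0.79, from -1.13 (Atp5g1) to -0.51 (Atp5g2). All 35 were lower without overlap, against 11.1% of all genes. From sedentary to trained labelled knockout hearts all 35 fell as well (16.3% of all genes fell), at a median of -0.65. Again all 35 were lower without overlap, against 13.7% of all genes. In wild-type hearts limma called 0 of 35 after training (2.53% of all genes fell), with 6 lower and 0 higher at an unadjusted p below 0.05, 0 called by voom, and 0 lower without overlap against 1.68% of all genes. The median there was -0.07 against -0.01 for all genes, or 0.01 against 0.05 on the TPM scale. Without the 4 libraries with high Myl7 it was 0.01 against -0.01. In that setting 0 members were called and 0.0437% of all genes fell. The 95% intervals of the wild-type training change ran from -0.53 at the lowest bound to 0.33 at the highest, so the data allow changes of that size for single genes.

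The difference between the 2 training changes (labelled knockout minus wild-type, the interaction) was below 0 for all 35 and passed for 32, where 5.00% of all genes passed in that direction. Its median was -0.56. Sdha (-0.23 ± 0.14, limma adjusted p = 0.309), Uqcrc2 (-0.27 ± 0.11, limma adjusted p = 0.131) and Atp5k (-0.54 ± 0.18, limma adjusted p = 0.0735) did not pass. These comparisons share groups: the trained labelled knockout libraries enter 3 of the 5, so their counts are not independent of one another. After TPM scaling 6 members fell in the sedentary comparison (Sdha, Uqcrc1, Uqcrc2, Atp5a1, Atp5c1 and Atp5g1) and 6 passed the interaction (Sdhb, Uqcrc1, Uqcrfs1, Cox6b1, Atp5g1 and Atp5o), against 33 in trained mice and 34 for training in labelled knockout hearts. On that scale the share of all genes that fell was 2.86% in sedentary mice, 0.423% for the interaction, 5.75% in trained mice and 4.59% for training in labelled knockout hearts. The sedentary count was 10 without sedentary wild-type replicate 3 or without sedentary labelled knockout replicate 2, 4 or 5, each left out in turn, and with log2 Arntl as a covariate it was 4 and the interaction count 14, where 2.35% and 1.34% of all genes fell.

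**Figure D2:**
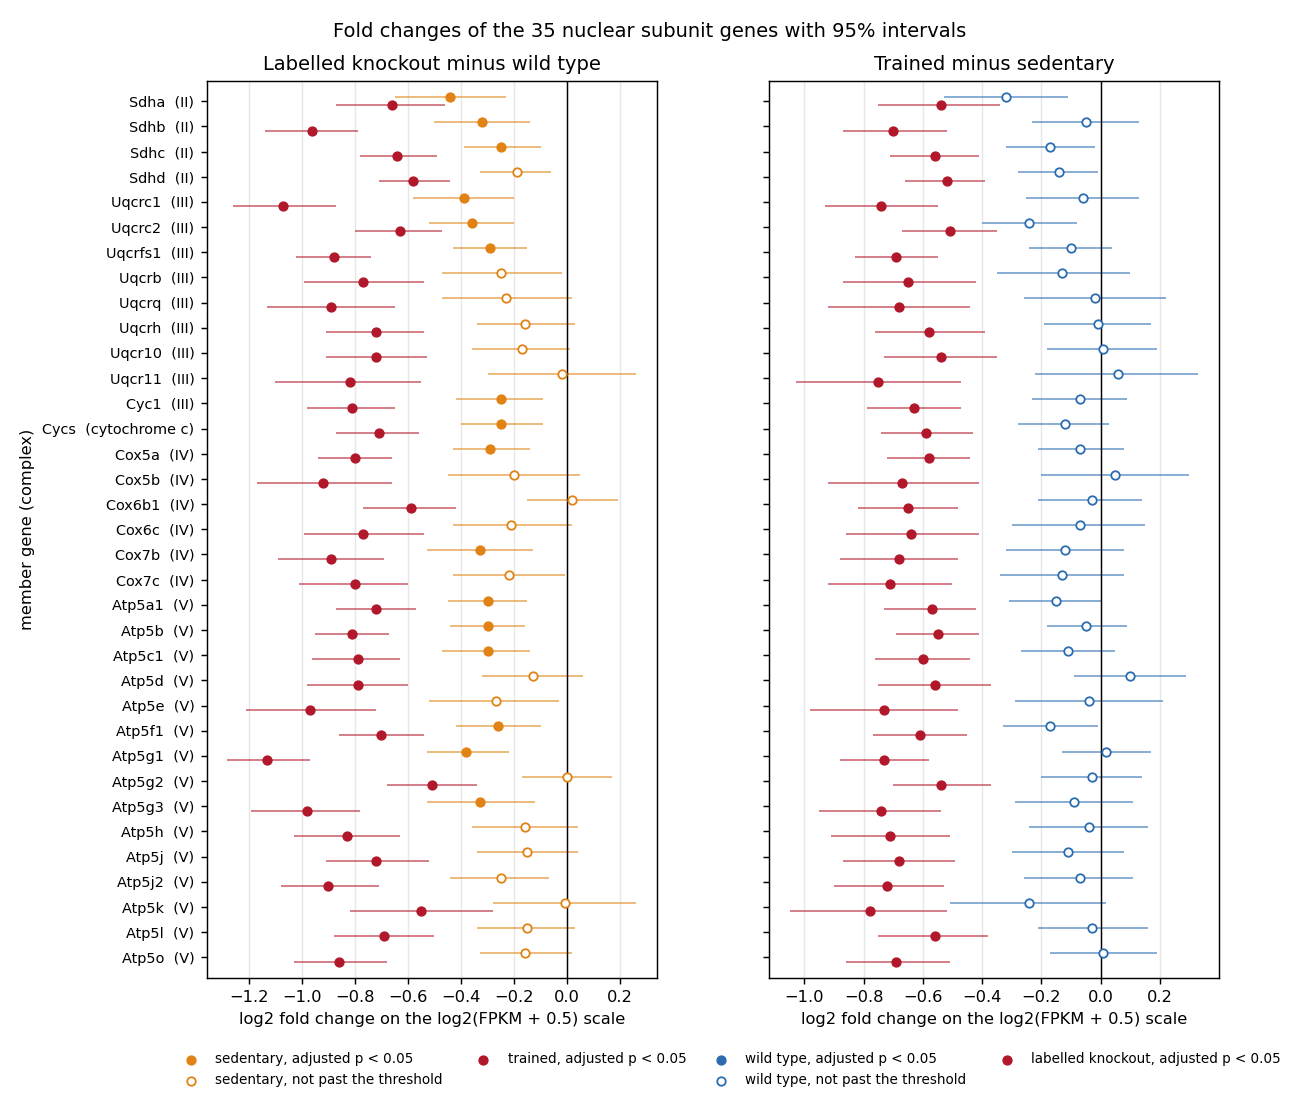
Log2 fold change of each of the 35 genes with its 95% interval, for genotype (left) and for training (right). Filled points passed an adjusted p of 0.05; all 35 passed in trained mice and for training in labelled knockout hearts, 16 in sedentary mice and 0 for training in wild-type hearts.

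Complex II was lowered in part already in sedentary labelled knockout hearts. There 3 of its 4 genes fell, and Sdhd, a membrane anchor, missed the threshold at -0.19 ± 0.06 (limma adjusted p = 0.0543). Sdha (ENSMUSG00000021577, chromosome 13, 74322254 to 74350280 in GRCm38, minus strand) encodes the flavoprotein that oxidises succinate. It measured 391, 368, 453, 446 and 400 FPKM in sedentary wild-type, 314, 316, 281, 284 and 322 FPKM in sedentary labelled knockout, 419, 285, 371, 281 and 310 FPKM in trained wild-type, and 217, 216, 210, 184 and 214 FPKM in trained labelled knockout hearts. Every trained labelled knockout library lay below all others, and trained wild-type libraries spread over the range of both sedentary groups. Sdha fell by genotype in sedentary (-0.44 ± 0.10, limma adjusted p = 0.00659) and trained mice (-0.66 ± 0.10, limma adjusted p = 4.5e-05). Its training change was -0.54 ± 0.10 in labelled knockout hearts, where it passed, and -0.32 ± 0.10 in wild-type hearts (limma adjusted p = 0.0636), the most negative training estimate of any member there.

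Sdhb, the iron-sulfur subunit, passed the interaction, and its difference from Sdha was not tested. Sdhb measured 367, 378, 398, 433 and 430 FPKM in sedentary wild-type, 321, 313, 363, 308 and 303 FPKM in sedentary labelled knockout, 381, 439, 449, 345 and 333 FPKM in trained wild-type, and 202, 204, 200, 180 and 205 FPKM in trained labelled knockout hearts. The wild-type groups overlapped throughout, whereas trained labelled knockout libraries were far below the rest. The genotype difference was -0.32 ± 0.08 in sedentary and -0.96 ± 0.08 in trained mice, with an interaction of -0.64 ± 0.12 (limma adjusted p = 0.00705). Sdhc, the other membrane anchor, measured 142, 146, 165, 181 and 172 FPKM in sedentary wild-type, 131, 134, 142, 133 and 136 FPKM in sedentary labelled knockout, 147, 134, 156, 130 and 147 FPKM in trained wild-type, and 92.6, 94.7, 89.9, 83.9 and 97.4 FPKM in trained labelled knockout hearts. Its sedentary groups touched without overlapping, because the highest labelled knockout library was just under the lowest wild-type library. Sdhc changed by -0.25 ± 0.07 (limma adjusted p = 0.0265) by genotype in sedentary and -0.64 ± 0.07 in trained mice.

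In complex III the sedentary calls lay among the large subunits. All 4 catalytic and core genes fell in sedentary labelled knockout hearts (median -0.33), while limma called 0 of the 5 small supernumerary subunits (median -0.17), with 1 lower and 0 higher at an unadjusted p below 0.05 and 0 called by voom. The difference between the 2 sets was not tested. Their estimates met, at -0.25 ± 0.08 for Cyc1 and -0.25 ± 0.11 for Uqcrb. Uqcrc1 (ENSMUSG00000025651, chromosome 9, 108936633 to 108949623, plus strand), a core protein on the matrix side, measured 359, 361, 351, 416 and 418 FPKM in sedentary wild-type, 262, 283, 337, 288 and 286 FPKM in sedentary labelled knockout, 363, 430, 411, 332 and 301 FPKM in trained wild-type, and 172, 181, 176, 161 and 179 FPKM in trained labelled knockout hearts. It separated the genotypes in both states, most widely after training. The difference was -0.39 ± 0.09 (limma adjusted p = 0.00887) in sedentary and -1.07 ± 0.09 (limma adjusted p = 1.0e-07) in trained mice.

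Uqcrc2, the partner core protein, measured 333, 310, 356, 349 and 322 FPKM in sedentary wild-type, 258, 265, 273, 240 and 264 FPKM in sedentary labelled knockout, 336, 256, 320, 248 and 264 FPKM in trained wild-type, and 185, 187, 181, 172 and 184 FPKM in trained labelled knockout hearts. Trained wild-type replicates 2, 4 and 5 sat at the level of sedentary labelled knockout hearts and replicates 1 and 3 at that of sedentary wild-type hearts. Its genotype difference was -0.36 ± 0.08 (limma adjusted p = 0.00470) in sedentary and -0.63 ± 0.08 in trained mice, and its wild-type training change was -0.24 ± 0.08 (limma adjusted p = 0.0733). Sdha and Uqcrc2 were the 2 members that passed for training in wild-type hearts in some alternative fits. Of all genes, 10.3% fell there with array weights, 6.27% with the replicate block and 2.48% with a common sum without mitochondrial genes. Nothing about these 2 genes is read from those calls beside the shares.

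Uqcrfs1, the Rieske iron-sulfur protein that takes electrons from ubiquinol, measured 728, 717, 760, 814 and 738 FPKM in sedentary wild-type, 610, 601, 656, 612 and 591 FPKM in sedentary labelled knockout, 737, 730, 786, 628 and 636 FPKM in trained wild-type, and 386, 385, 378, 354 and 399 FPKM in trained labelled knockout hearts. Trained wild-type replicates 4 and 5 were within the range of sedentary labelled knockout hearts. The genotype difference was -0.29 ± 0.07 (limma adjusted p = 0.00778) in sedentary and -0.88 ± 0.07 (limma adjusted p = 2.8e-08) in trained mice, the training change in labelled knockout hearts -0.69 ± 0.07, and the interaction -0.59 ± 0.10 (limma adjusted p = 0.00568). Cyc1, the cytochrome c1 heme protein that passes electrons on to cytochrome c, went from 485 ± 28.9 to 407 ± 27.5 FPKM by genotype in sedentary mice (-0.25 ± 0.08, limma adjusted p = 0.0367) and from 464 ± 58.7 to 262 ± 7.92 FPKM in trained mice (-0.81 ± 0.08).

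The small subunits of complex III, Uqcrb, Uqcrq, Uqcrh, Uqcr10 and Uqcr11, brace the complex without carrying redox groups. In sedentary mice their genotype differences ran from -0.25 ± 0.11 (Uqcrb) to -0.02 ± 0.13 (Uqcr11), and in trained mice all 5 fell, from -0.89 ± 0.12 (Uqcrq) to -0.72 ± 0.09 (Uqcrh and Uqcr10). Uqcr11 showed the most negative interaction of the 35 members (-0.80 ± 0.19, limma adjusted p = 0.0175). Its group means were 505 ± 80.6 FPKM in sedentary wild-type and 497 ± 68.8 FPKM in sedentary labelled knockout hearts, then 529 ± 114 and 294 ± 19.7 FPKM after training. The promoter of Uqcr11 held both an ETS and an NRF1 string.

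Cytochrome c, the mobile carrier between complexes III and IV, is encoded in the heart by Cycs (ENSMUSG00000063694, chromosome 6, 50562563 to 50566538, minus strand). It measured 150, 140, 171, 159 and 156 FPKM in sedentary wild-type, 136, 125, 143, 129 and 121 FPKM in sedentary labelled knockout, 146, 143, 163, 128 and 134 FPKM in trained wild-type, and 90.2, 86.0, 87.6, 77.2 and 92.0 FPKM in trained labelled knockout hearts. The sedentary groups overlapped by a single library each, sedentary labelled knockout replicate 3 above sedentary wild-type replicate 2. Cycs fell by genotype in sedentary (-0.25 ± 0.07, limma adjusted p = 0.0318) and trained mice (-0.71 ± 0.07, limma adjusted p = 6.8e-07), and with training in labelled knockout hearts (-0.59 ± 0.07). Its interaction was -0.47 ± 0.10 (limma adjusted p = 0.0141).

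The 6 members of complex IV leave out its subunits that exist as isoforms, so they describe only a part of the complex. With Ndufa4, those 11 genes summed to 6143 ± 664 FPKM in sedentary wild-type hearts, against 2134 ± 206 FPKM for the 6 members. Among the 11, Cox7a1 (-1.25 ± 0.14), Cox6a2 (-0.41 ± 0.12) and Cox7a2 (-0.38 ± 0.09) fell by genotype in sedentary mice and the rest were not called. Of the 6 members, only Cox5a and Cox7b fell by genotype in sedentary mice (median of the 6 -0.21), and all 6 fell in trained mice (median -0.80). Cox5a, a structural subunit beside the catalytic core, measured 231, 228, 257, 267 and 274 FPKM in sedentary wild-type, 199, 196, 219, 208 and 203 FPKM in sedentary labelled knockout, 239, 258, 263, 225 and 214 FPKM in trained wild-type, and 139, 135, 136, 130 and 145 FPKM in trained labelled knockout hearts. Wild-type levels were alike in both states, and trained labelled knockout libraries lay within a narrow band. The genotype difference was -0.29 ± 0.07 (limma adjusted p = 0.00888) in sedentary and -0.80 ± 0.07 (limma adjusted p = 9.4e-08) in trained mice.

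Cox7b, an X-linked small subunit, measured 340, 335, 390, 384 and 423 FPKM in sedentary wild-type, 306, 283, 332, 306 and 262 FPKM in sedentary labelled knockout, 331, 383, 365, 319 and 321 FPKM in trained wild-type, and 197, 197, 171, 151 and 214 FPKM in trained labelled knockout hearts. The sedentary groups again met without overlapping. Cox7b differed by -0.33 ± 0.10 (limma adjusted p = 0.0283) in sedentary and -0.89 ± 0.10 in trained mice. Cox7c measured 320, 331, 382, 379 and 444 FPKM in sedentary wild-type, 329, 307, 358, 309 and 284 FPKM in sedentary labelled knockout, 303, 378, 371, 317 and 324 FPKM in trained wild-type, and 202, 203, 181, 164 and 222 FPKM in trained labelled knockout hearts. Here the sedentary groups overlapped, and the sedentary difference did not pass (-0.22 ± 0.10, limma adjusted p = 0.148) while the trained one did (-0.80 ± 0.10).

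Cox6b1, a subunit on the side of the intermembrane space where cytochrome c docks, was level between sedentary genotypes. Its means were 658 ± 58.8 FPKM in sedentary wild-type, 666 ± 28.2 FPKM in sedentary labelled knockout, 644 ± 66.3 FPKM in trained wild-type and 426 ± 41.0 FPKM in trained labelled knockout hearts. The sedentary difference was 0.02 ± 0.08 (95% interval -0.15 to 0.19), the trained one -0.59 ± 0.08 (limma adjusted p = 2.0e-05), and the interaction -0.62 ± 0.12 (limma adjusted p = 0.00729). Cox5b (-0.20 ± 0.12) and Cox6c (-0.21 ± 0.11) also missed the threshold in sedentary mice and fell in trained mice, by 0.92 and 0.77 on the log2 scale.

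**Figure D3:**
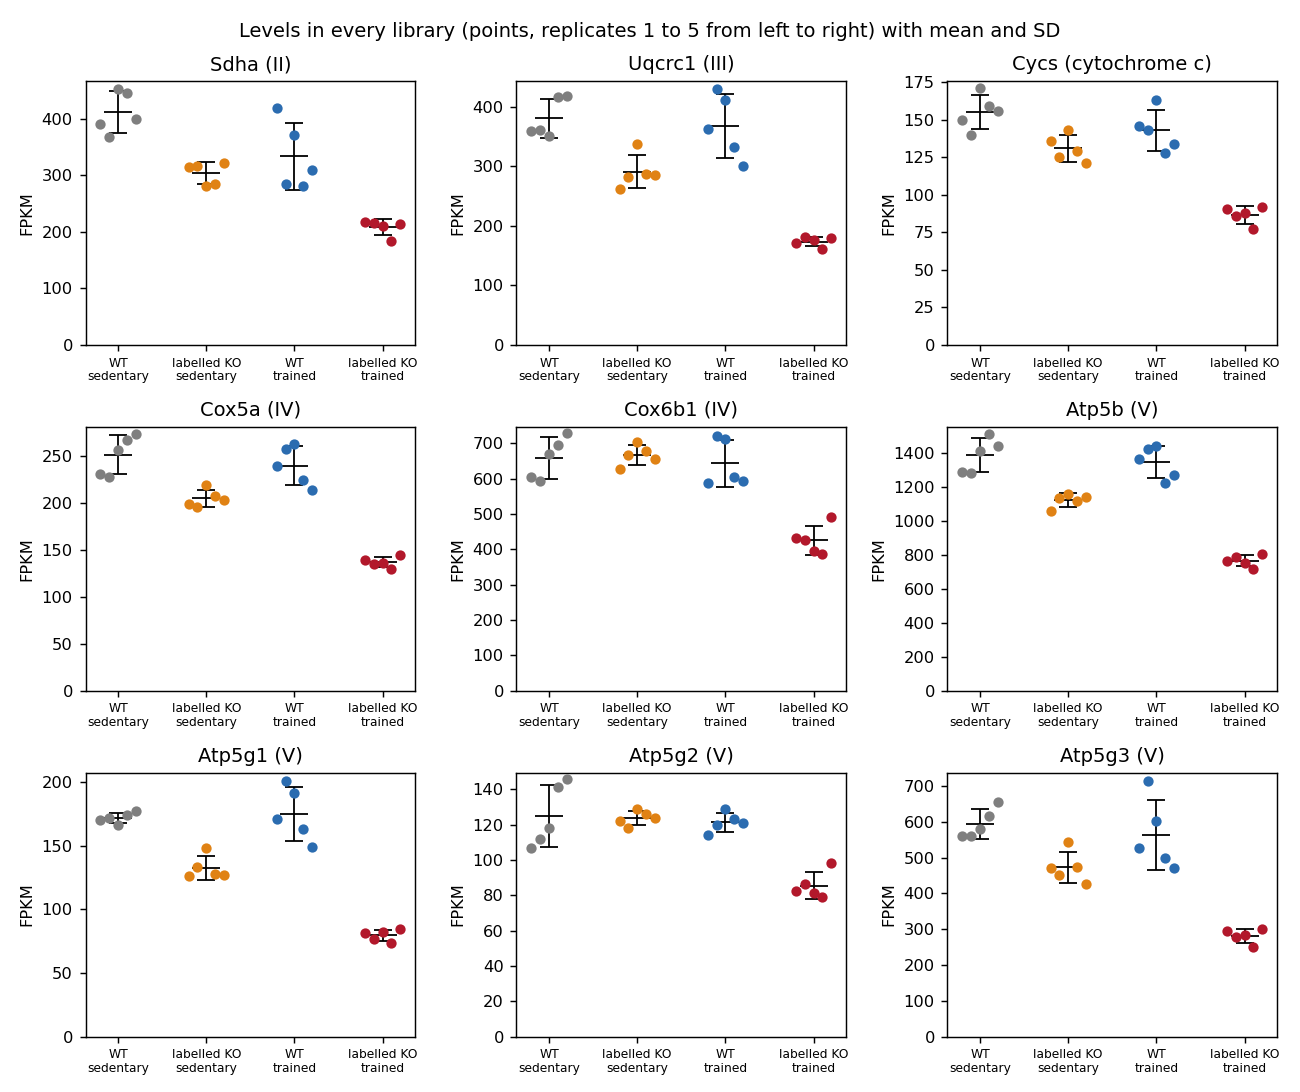
FPKM of 9 members in every library, with mean and SD of each group; every axis starts at 0. In all 9 the trained labelled knockout libraries lie below the other groups, while Cox6b1 and Atp5g2 show no separation of the sedentary genotypes.

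Complex V had 6 of its 15 genes fall by genotype in sedentary mice and 15 of 15 in trained mice. In the catalytic F1 head, where ATP is made, 3 of 5 fell in sedentary mice (Atp5a1, Atp5b and Atp5c1, median of the 5 -0.30). The other genes of the head, Atp5d (-0.13 ± 0.09) and Atp5e (-0.27 ± 0.12), missed the threshold. Atp5b (ENSMUSG00000025393, chromosome 10, 128083273 to 128090391, plus strand), the β subunit with the catalytic sites, measured 1289, 1287, 1416, 1517 and 1442 FPKM in sedentary wild-type, 1058, 1137, 1163, 1120 and 1145 FPKM in sedentary labelled knockout, 1365, 1427, 1444, 1228 and 1272 FPKM in trained wild-type, and 768, 791, 754, 718 and 804 FPKM in trained labelled knockout hearts. The 4 groups formed 3 levels, with both wild-type groups on top. Its genotype difference was -0.30 ± 0.07 (limma adjusted p = 0.00522) in sedentary and -0.81 ± 0.07 (limma adjusted p = 6.1e-08) in trained mice.

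Atp5a1, the α subunit and by its level per length the most abundant transcript of the 35, measured 1625, 1574, 1690, 1872 and 1759 FPKM in sedentary wild-type, 1333, 1430, 1358, 1356 and 1429 FPKM in sedentary labelled knockout, 1714, 1492, 1687, 1366 and 1412 FPKM in trained wild-type, and 960, 919, 936, 867 and 955 FPKM in trained labelled knockout hearts. Trained wild-type replicates 4 and 5, which are among the libraries with high Myl7, were within the range of sedentary labelled knockout hearts. Atp5a1 differed by -0.30 ± 0.07 (limma adjusted p = 0.00998) in sedentary and -0.72 ± 0.07 in trained mice, with an interaction of -0.42 ± 0.10 (limma adjusted p = 0.0213).

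The membrane ring that proton flow turns is built from a single small protein, subunit c, made from 3 genes, Atp5g1, Atp5g2 and Atp5g3, whose mature products are identical and whose import sequences differ. These 3 genes did not move alike in sedentary mice. Atp5g1 (ENSMUSG00000006057, chromosome 11, 96068852 to 96075670, minus strand) measured 170, 172, 166, 174 and 177 FPKM in sedentary wild-type, 126, 133, 148, 128 and 127 FPKM in sedentary labelled knockout, 171, 201, 191, 163 and 149 FPKM in trained wild-type, and 81.5, 76.7, 81.9, 73.2 and 84.2 FPKM in trained labelled knockout hearts. The coefficient of variation over sedentary wild-type libraries was 2.49%, the lowest of all members in that group, and no labelled knockout library reached them. Atp5g1 had the smallest p of the 35 in both genotype comparisons: -0.38 ± 0.07 (limma adjusted p = 0.00213) in sedentary and -1.13 ± 0.07 (limma adjusted p = 5.5e-09) in trained mice. Its training change was 0.02 ± 0.07 in wild-type and -0.73 ± 0.07 in labelled knockout hearts, an interaction of -0.75 ± 0.10 (limma adjusted p = 0.00462).

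Atp5g2 showed no such step before training. It measured 107, 112, 118, 141 and 146 FPKM in sedentary wild-type, 122, 118, 129, 126 and 124 FPKM in sedentary labelled knockout, 114, 120, 129, 123 and 121 FPKM in trained wild-type, and 82.6, 86.3, 81.5, 79.0 and 98.0 FPKM in trained labelled knockout hearts. All labelled knockout values of sedentary mice lay inside the wild-type range, and the difference was 0.00 ± 0.08 (95% interval -0.17 to 0.17). In trained mice Atp5g2 fell by 0.51 on the log2 scale (SE 0.08, limma adjusted p = 8.8e-05), the smallest trained difference of the 35. Atp5g3 measured 561, 559, 579, 615 and 655 FPKM in sedentary wild-type, 470, 452, 543, 475 and 426 FPKM in sedentary labelled knockout, 527, 714, 603, 500 and 472 FPKM in trained wild-type, and 295, 277, 285, 251 and 301 FPKM in trained labelled knockout hearts. Its genotype difference was -0.33 ± 0.10 (limma adjusted p = 0.0316) in sedentary and -0.98 ± 0.10 in trained mice.

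As a share of the summed c-ring FPKM, Atp5g2 was 13.9% ± 1.04 in sedentary wild-type, 17.0% ± 0.925 in sedentary labelled knockout, 14.3% ± 1.82 in trained wild-type and 19.1% ± 0.999 in trained labelled knockout hearts. The shares of the other two were lower in labelled knockout hearts, Atp5g1 at 17.8% ± 0.402 and Atp5g3 at 63.1% ± 0.862 after training against 20.4% ± 0.658 and 65.3% ± 2.20 in trained wild-type hearts. The lowest Atp5g2 share of trained labelled knockout hearts (18.0%) was above the highest of either wild-type group (15.2% sedentary, 16.3% trained). The shares follow from the levels just given and were not tested. Their absolute size depends on the gene models, because FPKM divides by the length of all exons of a gene and Gm10039, a copy of Atp5g1, took 370 FPKM on average.

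**Figure D4:**
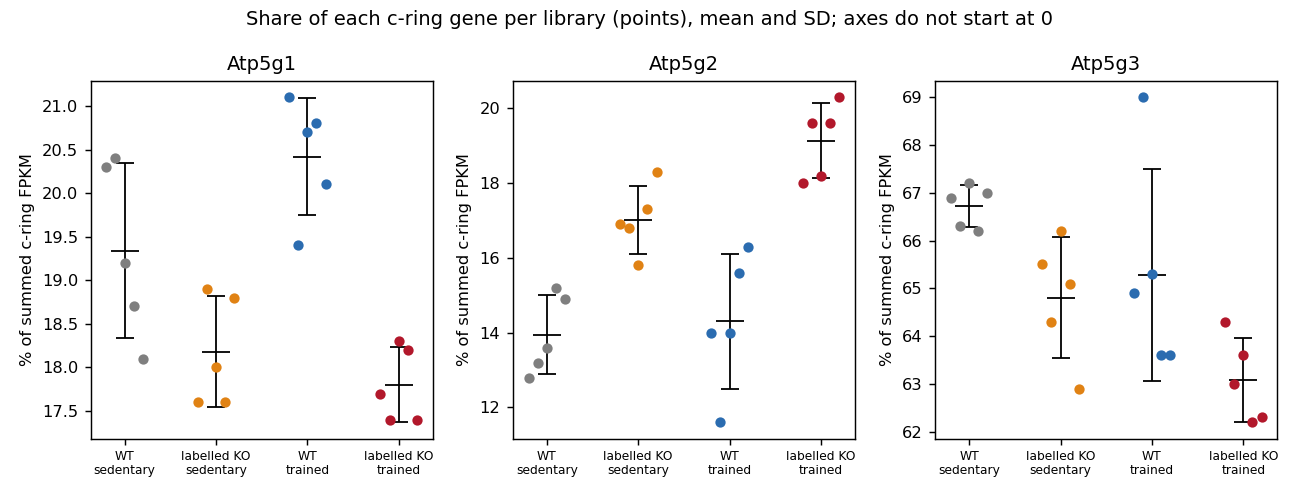
Share of Atp5g1, Atp5g2 and Atp5g3 in the summed FPKM of the 3 c-ring genes in each library, with mean and SD of each group; the vertical axes do not start at 0. The Atp5g2 share is 18.0 to 20.3% in trained labelled knockout libraries and at most 16.3% in wild-type libraries.

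The peripheral stalk, which holds the F1 head still against the turning ring, had 1 of 4 genes fall in sedentary mice, Atp5f1 (-0.26 ± 0.08, limma adjusted p = 0.0279). Atp5h (-0.16 ± 0.10), Atp5j (-0.15 ± 0.09) and Atp5o (-0.16 ± 0.08) missed the threshold, and all 4 fell in trained mice (median -0.77). Atp5o, the subunit that joins stalk and head, measured 216, 217, 233, 247 and 249 FPKM in sedentary wild-type, 199, 201, 242, 205 and 195 FPKM in sedentary labelled knockout, 213, 281, 253, 220 and 210 FPKM in trained wild-type, and 127, 131, 124, 122 and 143 FPKM in trained labelled knockout hearts. Sedentary labelled knockout replicate 3 stood within the wild-type range and the other 4 below it. Its interaction was -0.70 ± 0.12 (limma adjusted p = 0.00698). Of the membrane accessory subunits Atp5j2, Atp5k and Atp5l, of which Atp5k and Atp5l help the enzyme form dimers, limma called 0 of 3 in sedentary mice (1 lower at an unadjusted p below 0.05, 0 called by voom), at -0.25 ± 0.09, -0.01 ± 0.13 and -0.15 ± 0.09. All 3 fell in trained mice, at -0.90 ± 0.09, -0.55 ± 0.13 and -0.69 ± 0.09. Atp5k also had the most negative training change of the 35 in labelled knockout hearts (-0.78 ± 0.13).

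Across the members, the sedentary genotype difference was larger for longer genes, a feature the choice of genes did not use. Over the 35 genes the Spearman correlation of the sedentary log2 fold change with coding length was -0.51, and with summed exon length -0.50, as a description over genes that share the same 10 libraries. With coding length it was 0.05 in trained mice and 0.38 for the interaction. For training it was -0.27 in wild-type and 0.37 in labelled knockout hearts. Of 11 members with a coding length of at least 600 bases, 10 fell in sedentary mice (median -0.30), the exception being Atp5o, against 6 of 24 shorter members (median -0.21). Both sets fell in full in trained mice, at medians of -0.81 and -0.78. The split at 600 bases was set after earlier results were known, and the median standard errors were 0.08 for the longer and 0.09 for the shorter genes. Length coincides with role here, as every catalytic and core gene of complex III is in the longer set and every small subunit in the shorter. Whether all genes tested show such a relation with length was not examined.

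**Figure D5:**
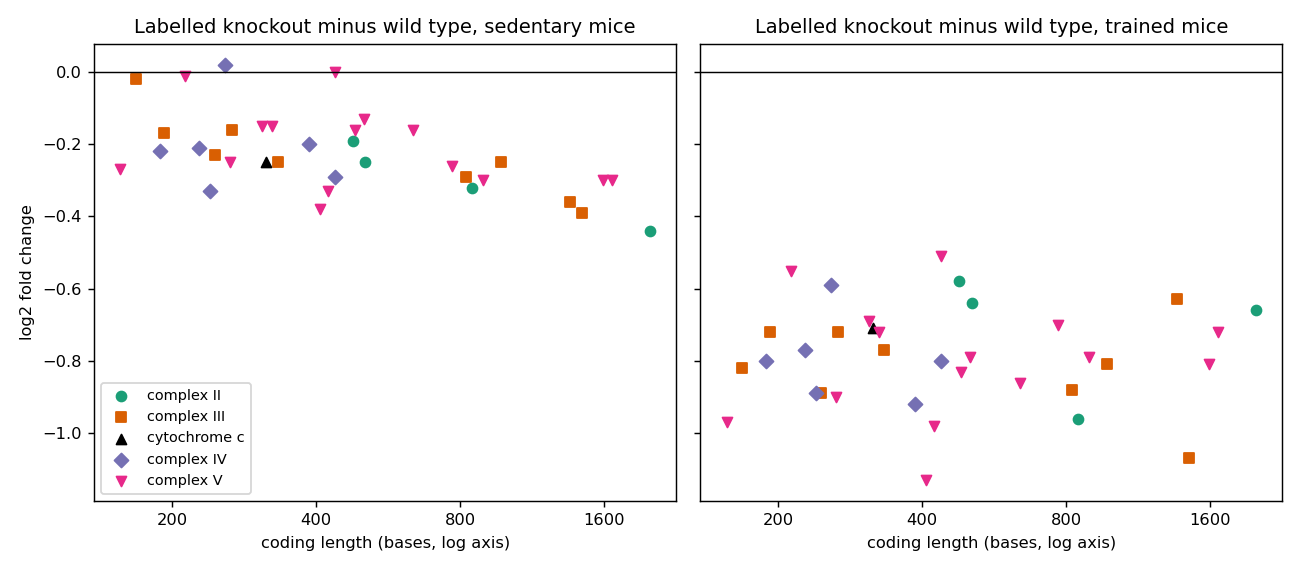
Log2 fold change by genotype against coding length (log axis) for the 35 genes, in sedentary (left) and trained mice (right), with symbols by complex. In sedentary mice the points lie lower toward longer coding length (Spearman -0.51), and in trained mice they show no such slope (0.05).

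Within groups the complexes varied together from mouse to mouse. After the group mean was taken off each gene's log2 value, the mean deviation of complex III correlated with that of complex IV at 0.95 and of complex V at 0.97, and complexes IV and V at 0.98, over 20 libraries. Complex II followed less closely, at 0.57, 0.54 and 0.62 with III, IV and V and 0.81 with Cycs. The core genes of complex III stood nearer to complex II (0.79) than its small subunits did (0.38), and core and small subunits correlated at 0.64. Libraries share depth and scaling, so these coefficients are a description without a test. Single libraries set some of the spread: sedentary labelled knockout replicate 3 was the highest of its group for 30 of 35 genes, trained labelled knockout replicate 4 the lowest for 34, trained labelled knockout replicate 5 the highest for 26, and trained wild-type replicate 2 the highest for 22. Trained wild-type replicate 2 was 0.28 above its group in the small subunits of complex III, 0.09 above it in the core genes and 0.04 below it in complex II. It was also the shallowest library, at 14.2 M reads, and the part of depth in this was not tested. The coefficient of variation was widest in trained wild-type hearts, with a median of 12.5% over the 35 genes, against 8.88% in sedentary wild-type, 7.35% in sedentary labelled knockout and 6.69% in trained labelled knockout hearts.

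Some member transcripts share sequence with copies elsewhere in the genome, so reads may be split between them. Of the 35, 14 shared no stretch of 50 bases with another gene's transcripts. For 10 members, 12 copies shared at least 5% of such stretches and had at least 5 FPKM on average, which makes the levels of those members uncertain. Gm10221, a processed pseudogene of Atp5l, was at 331 FPKM against 41.8 FPKM for Atp5l itself, and Gm10250, a copy of Atp5h, at 159 against 362 FPKM. In trained mice the genotype differences of the copies ran from -0.59 (Gm16089, a copy of Uqcrb) to -1.14 (Gm10039), which covers those of their parent genes. Exons of 10 members overlap a gene on the other strand, the highest being Haus1 over Atp5a1 at 13.2 FPKM. The libraries were made with a strand-marking kit, and whether counting used strand is not given in the sources used here.

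Other genes of the respiratory pathway are given for the trained genotype comparison, in which 15.4% of all genes fell and 12.5% rose (5.75% and 37.4% after TPM scaling). Subunits of complex IV that exist as isoforms, with Ndufa4, fell in 8 of 11 genes in trained labelled knockout against trained wild-type hearts (6 after TPM scaling). The muscle isoform Cox7a1 went from 615 ± 120 to 130 ± 23.7 FPKM (-2.24 ± 0.14, limma adjusted p = 3.3e-09), a larger difference than any of the 35 members showed, and it already differed by -1.25 ± 0.14 in sedentary mice. The heart isoform Cox6a2 fell by 1.16 and Cox7a2 by 0.93 on the log2 scale. The 7 nuclear core subunits of complex I fell in 7 of 7 (median -0.84), with Ndufs3 at -0.88 ± 0.07. Subunits of complexes III, IV and V made from the mitochondrial genome fell in 4 of 6 (3 after TPM scaling), among them mt-Cytb (-0.52 ± 0.13), mt-Co3 (-1.19 ± 0.32) and mt-Co2 (-0.97 ± 0.26), and 0 of 6 passed the interaction in limma, with 0 at an unadjusted p below 0.05, 0 called by voom and a median of -0.23.

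Assembly factors of complexes II to V fell in 18 of 30 measured genes and rose in 1 in the trained genotype comparison (4 and 2 after TPM scaling), led by Fmc1, an assembly factor of ATP synthase, at -1.01 ± 0.13. Adenine nucleotide, phosphate and creatine kinase partners of ATP synthase, among them the Vdac channel genes, fell in 7 of 7 (4 after TPM scaling). The mitochondrial creatine kinase Ckmt2 was at -1.40 ± 0.11, the phosphate carrier Slc25a3 at -0.76 ± 0.07 and the adenine nucleotide carrier Slc25a4 at -0.79 ± 0.09. Atpif1, the inhibitor of ATP synthase, moved against the members in sedentary mice, where its level was 37.4 ± 3.61 FPKM for wild-type mice and 51.4 ± 4.65 FPKM for labelled knockout mice (0.45 ± 0.11, limma adjusted p = 0.00919). After training it was at 43.0 ± 7.95 and 36.4 ± 3.92 FPKM (-0.23 ± 0.11, limma adjusted p = 0.132), an interaction of -0.68 ± 0.15 (limma adjusted p = 0.0146). The other ATP synthase genes listed with Atpif1 were Usmg5, Atp5mpl and Atp5s. In sedentary mice they differed by -0.27 ± 0.11, -0.17 ± 0.11 and -0.47 ± 0.07, and only Atp5s passed. In trained mice they differed by -0.78 ± 0.11, -0.77 ± 0.11 and -0.59 ± 0.07. Of 15 regulators of respiratory genes, 3 fell and 1 rose in the trained comparison (2 and 5 after TPM scaling), and nothing about the list is read from these counts beside the shares of all genes. Esrra, the estrogen-related receptor α, fell from 87.7 ± 3.47 to 48.6 ± 1.59 FPKM (-0.85 ± 0.05, limma adjusted p = 2.7e-09), Perm1, a muscle regulator downstream of PGC-1α, by 0.78 and the mitochondrial transcription factor Tfam by 0.29 on the log2 scale, and Ppargc1a was the 1 that rose (0.55). In sedentary mice Esrra differed by -0.47 ± 0.05 (limma adjusted p = 9.2e-06).

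Markers of cell types moved with the same contrast, and their part in the subunit result was not tested. In trained labelled knockout against trained wild-type hearts, 15.4% of all genes fell and 12.5% rose. There cardiomyocyte markers fell in 7 of 10 and rose in 1 (median -0.39). After TPM scaling 3 fell and 2 rose, at a median of -0.10 where that of all genes was 0.24. Their summed level was 17505 to 19640 FPKM in trained labelled knockout, 20844 to 23846 FPKM in trained wild-type, 21781 to 25681 FPKM in sedentary labelled knockout and 21424 to 26799 FPKM in sedentary wild-type hearts, and no marker was below 0.1 FPKM in every library. Fibroblast markers rose in 4 of 5 (220 to 329 against 101 to 162 FPKM summed) and macrophage markers in 5 of 5 (114 to 202 against 57.1 to 95.8 FPKM summed), likewise with none below 0.1 FPKM throughout. In the sedentary genotype comparison 6.32% of all genes fell and 6.96% rose. There 2 of 10 cardiomyocyte markers fell (Tnni3 and Ryr2, median of the 10 -0.03) and 3 of 5 macrophage markers rose. Endothelial markers were below 0 in 5 of 5 in both genotype comparisons, where the median of all genes was -0.01 in each. Of the 5, 2 fell in sedentary mice (Kdr, -0.99, and Tek, -0.56) and 2 in trained mice (Flt1, -0.42, and Pecam1, -0.37). Their summed level was 89.6 to 114 FPKM in sedentary labelled knockout against 124 to 148 FPKM in sedentary wild-type hearts. Of 4 mural and smooth muscle markers tested, Acta2 rose in sedentary (2.32) and trained mice (1.81) and Rgs5 fell in sedentary mice (-0.48). The high-Myl7 libraries also held adipocyte transcripts, where Ucp1 of brown fat reached 57.8 FPKM (trained wild-type replicate 4), 30.1 FPKM (trained wild-type replicate 5), 117 FPKM (trained labelled knockout replicate 2) and 4.42 FPKM (trained labelled knockout replicate 5). Without those 4 libraries the interaction passed for 31 members, where 5.83% of all genes fell. All 35 members still fell in trained mice (median -0.92, 14.1% of all genes) and with training in labelled knockout hearts (median -0.70, 15.9% of all genes). Leaving out the 5 high-Arntl libraries kept a single wild-type mouse among the sedentary controls. All 35 then fell in both of those comparisons, while 0 were called in sedentary mice (median -0.34) and 0 for the interaction (median -0.40). Over all 13723 genes that setting called 19 in sedentary mice and 1 for the interaction, against 1822 and 1005 with all libraries.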

How the data were processed

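The authors deposited 1 table of FPKM for 25851 genes in 20 libraries (poly-A selected, strand-marking kit, per the labels' protocols). The submitters' processing notes name HISAT2 2.0.5, featureCounts 1.5.0-p3, DESeq2 1.20.0 and mm10, without saying which made the table. The columns of no sample numbered 0. FPKM times exon length (GENCODE M21) gave whole reads within 0.01 in every library for 96.6% of genes with a gene model, at 14.2 to 30.4 M reads per library. The fit used limma 3.58.1 in R 4.3.3 on log2(FPKM + 0.5) for the 13723 genes with a mean of at least 0.5 FPKM. All 4 groups shared 1 fit with 16 residual degrees of freedom, a mean-variance trend and Benjamini-Hochberg adjustment, two-sided, and the fit was tested on simulated data. The 35 genes and the other lists were chosen with earlier results of these data known. Values in every library are given for up to 3 members of each complex by sedentary p, for Cycs, for the c-ring genes and for up to 5 members by p called for training or the interaction, and other lists name up to 3 genes by p. Cox6b1, Uqcr11 and Cyc1 were described after their values were seen, as were single genes of other lists outside that rule. Alternatives covered pseudocount, filter, scaling, voom, array weights, robust variance, replicate block and each library left out. Those on Myl7 and Arntl were chosen after seeing the data. Promoters come from RefSeq (GRCm38.p6), matched for 27 of 35 members.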

Additional observations from a re-analysis of the deposited data

Results flagged for a closer look

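Within groups of 5, a single library stood apart from the other 4 for 5 of 140 gene and group combinations, where chance gives about 1 in 20. In trained labelled knockout replicate 4, Sdha was at 184 FPKM and Sdhb at 180 FPKM, each below its group. In sedentary labelled knockout replicate 3, Uqcrq was at 378 FPKM, Cox5b at 316 FPKM and Atp5o at 242 FPKM, each above its group.

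The training change differed between genotypes (labelled knockout minus wild-type, log2, limma adjusted p below 0.05) for 32 members. Of all genes, 5.00% passed in that direction. The count was 6 after TPM scaling (0.423% of all genes), 7 with a common sum without mitochondrial genes (0.481%) and 14 with log2 Arntl as a covariate (1.34%). Without the high-Arntl libraries, which left 1 sedentary wild-type library, the members' median was -0.40. Nearest the threshold were Uqcrb (limma adjusted p = 0.0429), Cox6c (limma adjusted p = 0.0333) and Sdhc (limma adjusted p = 0.0265). Their calls were lost in 17, 14 and 10 alternative fits. The values below are on the deposited scale with all libraries. In complex II the difference was -0.64 for Sdhb, -0.39 for Sdhc and -0.38 for Sdhd. In complex III it was -0.68 for Uqcrc1, -0.59 for Uqcrfs1, -0.56 for Cyc1, -0.52 for Uqcrb, -0.66 for Uqcrq, -0.57 for Uqcrh, -0.55 for Uqcr10 and -0.80 for Uqcr11. Cycs was at -0.47. In complex IV it was -0.51 for Cox5a, -0.71 for Cox5b, -0.62 for Cox6b1, -0.58 for Cox7c and -0.56 for both Cox6c and Cox7b. In the F1 head it was -0.42 for Atp5a1, -0.51 for Atp5b, -0.49 for Atp5c1, -0.66 for Atp5d and -0.69 for Atp5e. In the c-ring it was -0.75 for Atp5g1, -0.51 for Atp5g2 and -0.65 for Atp5g3. In the stalk it was -0.44 for Atp5f1, -0.67 for Atp5h, -0.56 for Atp5j and -0.70 for Atp5o, and among accessory subunits -0.65 for Atp5j2 and -0.54 for Atp5l.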

How the results depend on the processing

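No member called in the reported fits changed direction under any alternative run. The counts of 35 in trained mice and 35 for training in labelled knockout hearts held except after TPM scaling (33 and 34). TPM scaling gave 6 members for the sedentary comparison and 6 for the interaction. Scaling to a common sum without mitochondrial genes gave 7 for the interaction and 2 for wild-type training (Sdha and Uqcrc2). Array weights (2) and the replicate block (2) called the same 2 for wild-type training. Of all genes, 0.481% fell for the interaction with the common sum. For wild-type training 2.48% of all genes fell with the common sum, 10.3% with array weights and 6.27% with the replicate block. The correlation of deviations between same-numbered replicates ran from -0.278 to 0.484, so not every pair was above 0.1 and the numbers were not taken to pair the mice, though replicate 1 (0.251 to 0.364) and replicate 5 (0.079 to 0.484) were positive in every pair. The block raised the wild-type training calls over all genes from 750 to 1664. It gave 16 members for the sedentary comparison (9.15% of all genes fell) and 31 for the interaction (6.19%). Without the high-Arntl libraries the counts were 0 and 0, on a single sedentary wild-type library assumed to vary like the other groups, and with log2 Arntl as a covariate 4 and 14. Calls over all genes moved too, from 1822 and 1005 to 19 and 1 without those libraries and to 594 and 267 with the covariate; the cause was not tested. Leaving out each library gave 10 to 17 members in sedentary mice, 0 to 2 for wild-type training (2 without trained wild-type replicate 1 or 3) and 29 to 33 for the interaction.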
